A study of Mus musculus with 9 samples.

Results

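Haem synthesis enzymes and their erythroid partners were followed in sorted mouse bone marrow haematopoietic stem cells (HSCs), the cells from which all blood lineages arise. The genes were chosen by symbol, without reference to a threshold, and are Alas1, Alas2, Alad, Urod, Cpox, Ppox and Fech of haem synthesis, Blvrb (biliverdin reductase B) and Car1 (carbonic anhydrase 1). All 9 were found once each among 19454 listed genes, and all 9 were among the 14461 genes with enough counts to be tested. The study prepared 9 libraries of 1500 sorted HSCs each from wild-type mice. In 3 libraries mice had chemogenetic inhibition of the mPFC and PAG brain regions and a spermidine supplement (inhibition plus spermidine), in 3 they had the inhibition alone (inhibition), and 3 were labelled Ctrl (control). Chemogenetic inhibition silences neurons that carry a designed receptor, and the library names mark both inhibition groups AAV, a viral carrier, with no virus or drug named for control. Red blood cells were lysed before the sort, per the labels. Age, sex, doses, the sort markers and the source animal of each library are not given in the labels.

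Haem, the iron-holding ring of haemoglobin, cytochromes and catalase, is made in a chain of enzymes that starts and ends in mitochondria. The first step, joining glycine and succinyl-CoA to aminolevulinic acid, is done by ALAS1 in all cells and by ALAS2 in erythroid cells. Alad, Uros and Urod act in the cytosol, Cpox, Ppox and Fech act in mitochondria, and Fech inserts the iron. Erythroid cells raise the whole chain under GATA1 and KLF1 as they fill with haemoglobin. BLVRB is an abundant flavin and biliverdin reductase of red cells, and CAR1 is a red cell enzyme that interconverts carbon dioxide and bicarbonate.

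Promoters of the aminolevulinate synthase pair and of Cpox are shown because Alas1 and Alas2 moved opposite to Cpox in the comparisons with control below. RefSeq promoters (GRCm38.p6, from 250 bases before to 50 bases after a start site) were matched for 7 of the 9 genes, with 10 promoters between them. Each was searched on both strands for the letters AGATAA, called the GATA motif here. The search for the KLF motif used the letters CCACCC. Capitals mark the matches, and sequences run 5′ to 3′ along the gene's strand.
Alas1, chr9:106247905-106248204, minus strand: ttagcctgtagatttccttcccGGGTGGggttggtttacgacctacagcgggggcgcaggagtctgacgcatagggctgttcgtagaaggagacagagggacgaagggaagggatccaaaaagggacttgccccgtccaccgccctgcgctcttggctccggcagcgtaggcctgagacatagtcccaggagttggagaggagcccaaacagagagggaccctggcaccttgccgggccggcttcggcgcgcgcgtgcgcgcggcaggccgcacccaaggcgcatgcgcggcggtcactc
Alas2, chrX:150547167-150547466, plus strand: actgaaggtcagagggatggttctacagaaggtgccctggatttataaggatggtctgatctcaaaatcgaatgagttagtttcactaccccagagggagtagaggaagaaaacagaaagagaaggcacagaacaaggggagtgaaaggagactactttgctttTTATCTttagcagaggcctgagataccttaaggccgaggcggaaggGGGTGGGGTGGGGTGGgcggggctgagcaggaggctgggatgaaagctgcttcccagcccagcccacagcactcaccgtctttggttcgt
Cpox, chr16:58669958-58670257, plus strand: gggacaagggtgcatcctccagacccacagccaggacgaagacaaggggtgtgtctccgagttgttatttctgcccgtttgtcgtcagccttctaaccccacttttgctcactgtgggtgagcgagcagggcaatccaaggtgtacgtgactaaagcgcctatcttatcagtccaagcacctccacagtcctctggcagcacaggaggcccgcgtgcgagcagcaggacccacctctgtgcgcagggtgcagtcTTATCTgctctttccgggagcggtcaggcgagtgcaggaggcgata
The Alas2 promoter held the GATA motif, read on the reverse strand, starting 86 bases before the start site, and 3 overlapping reverse KLF motif matches starting 40, 35 and 30 bases before it. The Cpox promoter held 1 reverse GATA motif match, 4 bases after the start site, and no KLF motif. This Alas1 promoter held 1 reverse KLF motif match 228 bases before the start site and no GATA motif. A second matched Alas1 promoter, not printed (chr9:106247681-106247980), held neither motif. Alas2 and Cpox were the only matched genes of the 9 with the GATA motif in these windows. Of 32851 RefSeq promoters of the same length 11.2% held the GATA motif, 31.5% the KLF motif and 2.63% both. A match describes letters and not a bound site.

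Library totals ran from 16096276 to 25360256 estimated counts, so 1 count was worth 0.0391 to 0.0615 CPM (counts scaled to library size). Whether replicates came from separate mice is not given, so p-values measure the spread between these libraries, which may be technical. All 14 HSC marker genes had counts in every group, and their sum was 505 to 513 CPM with inhibition plus spermidine, 384 to 397 CPM with inhibition and 370 to 381 CPM in control. The list was split between inhibition and control, with 7 genes higher, 6 lower and 1 not called. Of all tested genes 36.2% were called higher and 36.1% lower. The 3 HSC marker genes of smallest p went both ways. Ly6a averaged 94.5 CPM with inhibition plus spermidine, 83.5 CPM with inhibition and 6.21 CPM in control, and Cd34, a progenitor surface protein, averaged 78.7 CPM with inhibition plus spermidine, 55.7 CPM with inhibition and 9.21 CPM in control. Slamf1, an HSC surface marker, averaged 13.8 CPM with inhibition plus spermidine, 17.6 CPM with inhibition and 104.5 CPM in control. The 16 neutrophil granule genes summed to 23002 to 23654 CPM with inhibition plus spermidine, 63281 to 65166 CPM with inhibition and 6316 to 6565 CPM in control, and none of the 16 was at 0 in any group. In such sorted pools, fewer cells of a type and less RNA per cell cannot be told apart.

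**Figure D1:**
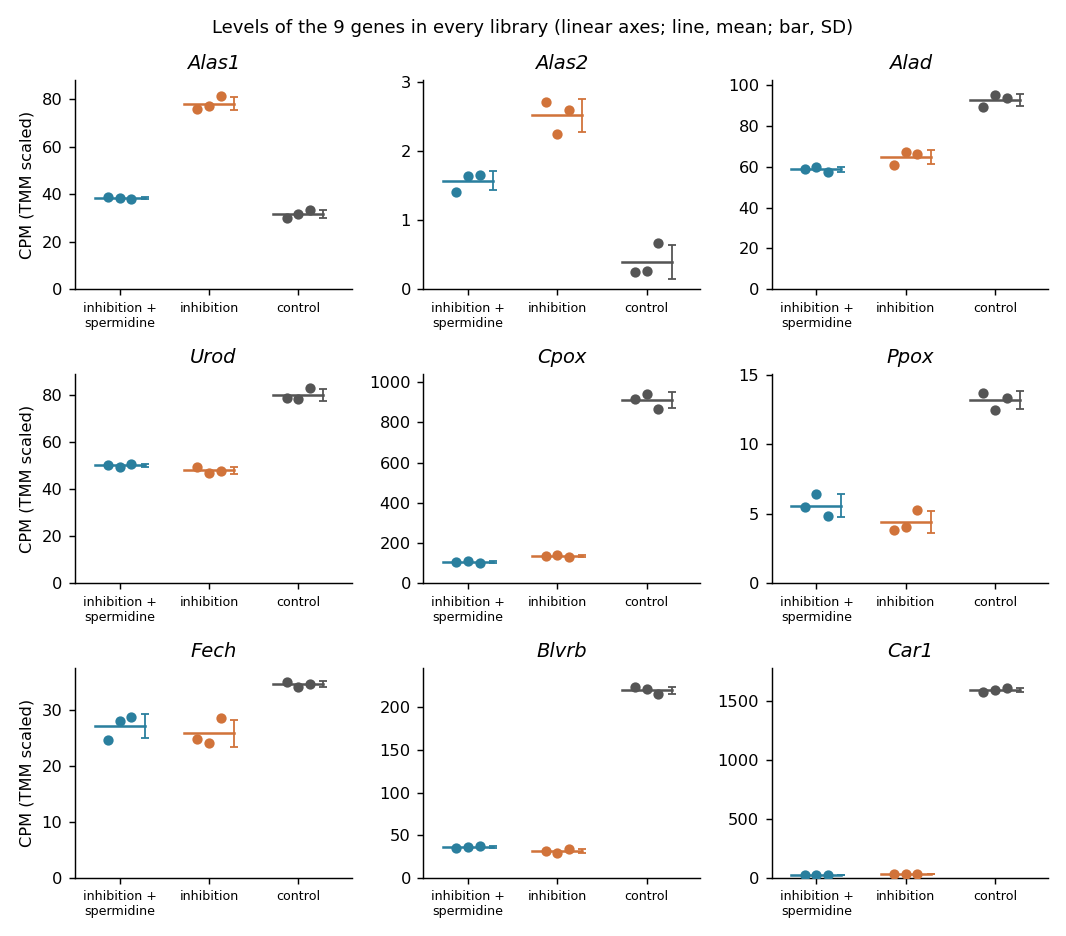
CPM of each of the 9 genes (linear y axes starting at 0) in the 3 libraries of inhibition plus spermidine, inhibition and control, with the mean as a line and the SD as a bar. Car1, Cpox and Blvrb stand far higher in control than in either other group, Alas1 is highest with inhibition, and Alas2 stays under 3 CPM in every library.

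Inhibition against control asks how HSCs of mice with these brain regions silenced differed from those of control mice. Haem synthesis split at its first step: both aminolevulinate synthase genes rose, and every later member fell. Car1 fell furthest, 53.7-fold by means, followed by Blvrb (6.97-fold) and Cpox (6.63-fold). Of the 9 genes 2 rose and 7 fell (edgeR quasi-likelihood test, Benjamini-Hochberg adjusted p under 0.05), where 36.2% of all tested genes were called higher and 36.1% lower. The libraries of both groups did not overlap for any of the 9, as was so for 74.5% of all tested genes, so being called is the common state here and the size of a change says more than the call.

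Alas1, the housekeeping synthase, had 75.9, 77.1 and 81.4 CPM with inhibition, against 29.8, 31.6 and 33.2 CPM in control. All inhibition libraries lay above all control libraries, and Alas1 rose with a log2 fold change of 1.31 (SE 0.046, adjusted p = 8.7e-14, edgeR). Alas2, the erythroid synthase, had 2.70, 2.24 and 2.6 CPM with inhibition, against 0.243, 0.268 and 0.671 CPM in control. The control values rest on 4, 5 and 13 counts and the inhibition values on 44, 54 and 52, so the size of the rise is imprecise (log2 fold change 2.61, SE 0.29, adjusted p = 4.21e-07, edgeR). Alas2 shares 311 of its 2403 exonic bases with Apex2 on the opposite strand, and the kit is not stated to keep strand. Apex2, picked here for that overlap, averaged 3.36 CPM with inhibition and 3.33 CPM in control. The deposited counts and TPM (a level per unit of transcript length) also imply an Alas2 transcript length lower by 0.73 on the log2 scale with inhibition than in control. In control this length rests on those 4, 5 and 13 counts, with TPM of 0.0788, 0.266 and 0.374. Counts and TPM did not keep a steady ratio there, so whether the mix of transcripts counted differed cannot be told. Alas1 made up nearly all synthase transcripts in every group: Alas2 was 4.58%, 3.73% and 4.92% of the Alas1 plus Alas2 TPM with inhibition, and 0.482%, 1.70% and 1.97% in control.

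The cytosolic enzymes fell together and by a similar amount. Alad, which joins 2 aminolevulinic acids into porphobilinogen, had 60.8, 67.4 and 66.6 CPM with inhibition, against 89.3, 95.3 and 93.9 CPM in control (log2 fold change -0.51, SE 0.043, adjusted p = 1.06e-08, edgeR). Urod, which removes carboxyl groups from uroporphyrinogen, had 49.6, 46.9 and 48.0 CPM with inhibition, against 78.8, 78.4 and 83.1 CPM in control (log2 fold change -0.74, SE 0.039). The groups stood apart for both genes. Uros, which closes the ring ahead of Urod, fell as well (log2 fold change -0.50, SE 0.078).

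The mitochondrial enzymes fell by unequal amounts. Cpox, which oxidises coproporphyrinogen, had 136, 142 and 134 CPM with inhibition, against 918, 943 and 866 CPM in control (log2 fold change -2.73, SE 0.041, adjusted p = 1.25e-18, edgeR). Its fall was the 257th largest of 14461 tested genes. Ppox, which makes the protoporphyrin ring, had 3.87, 4.07 and 5.30 CPM with inhibition, against 13.7, 12.4 and 13.4 CPM in control (log2 fold change -1.57, SE 0.12), and 17.5% of its exonic bases overlap B4galt3 on the opposite strand, a gene at 5.46 CPM with inhibition and 4.64 CPM in control. Fech, the ferrochelatase that ends the chain, had 24.8, 24 and 28.6 CPM with inhibition, against 35.0, 34.0 and 34.6 CPM in control, the smallest fall of the 9 genes (log2 fold change -0.42, SE 0.069, adjusted p = 3.31e-05, edgeR). No library of one group reached those of the other for any of these enzymes.

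**Figure D2:**
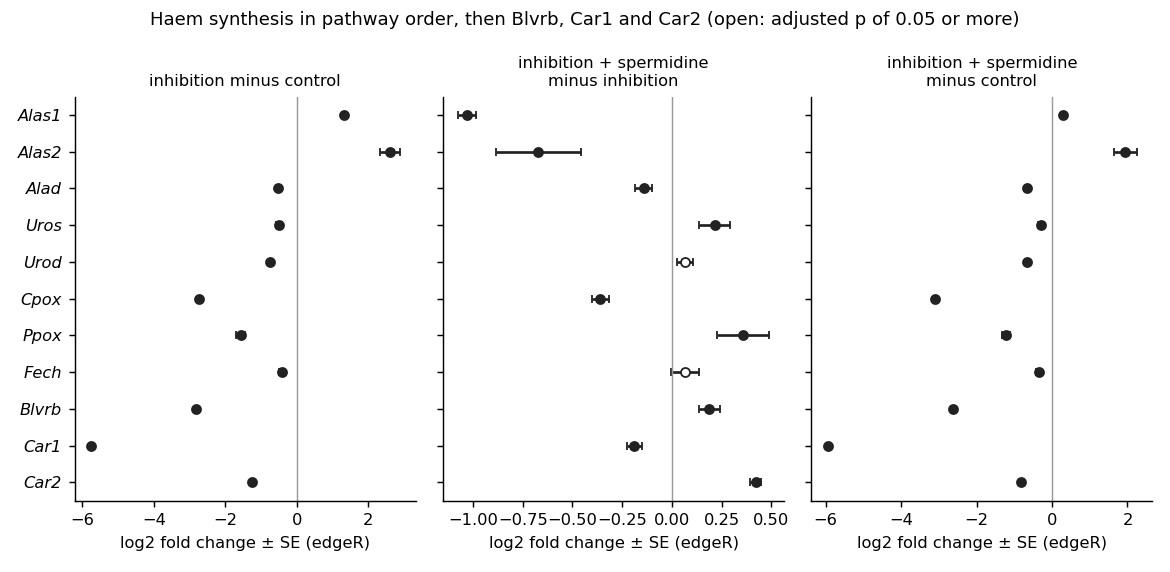
Log2 fold change (x axis, ± SE, edgeR) of haem synthesis enzymes in pathway order, then Blvrb, Car1 and Car2, for the 3 comparisons, with open circles for an adjusted p of 0.05 or more. Axis ranges differ between panels: Car1 lies at -5.75 and -5.94 in the comparisons with control and at -0.19 in the middle panel, where Alas1 lies at -1.03.

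The order of the enzymes changed with these shifts. In TPM, which allows genes to be compared, Cpox was 20.01% ± 0.586 of the summed 7 haem synthesis enzymes followed here with inhibition and 58.8% ± 1.66 in control (SD, n = 3 each). Alas1 was 31.0% ± 0.274 of that sum with inhibition and 4.72% ± 0.536 in control. Its counts and TPM imply a transcript length lower by 0.30 on the log2 scale with inhibition than in control. The rise of Alas1 is therefore larger in TPM than in CPM. The summed TPM of the 7 enzymes was 178, 177 and 171 with inhibition, against 349, 366 and 353 in control. Without Cpox the sum was 143, 140 and 137 with inhibition, against 139, 149 and 152 in control, and these ranges overlapped. Among the 9 genes followed here, Alas1 ranked first with inhibition (54.3 TPM), above Alad (43.6 TPM), whereas Car1 (936 TPM), Cpox (209 TPM) and Blvrb (192 TPM) led in control. With inhibition Cpox, Blvrb and Urod, at 35.0, 31.0 and 30.9 TPM, were neighbours whose libraries overlapped, and in control no neighbours overlapped.

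**Figure D3:**
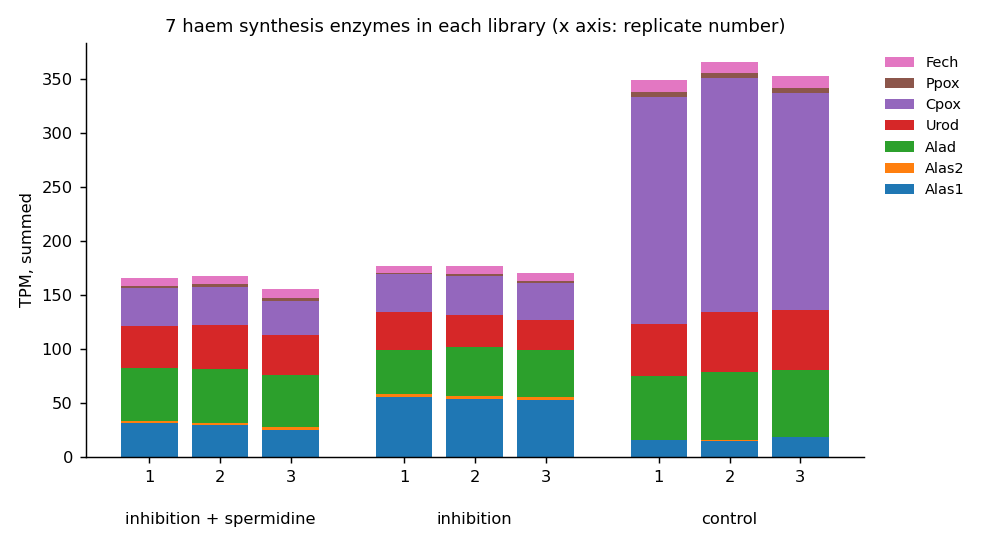
Stacked TPM of the 7 haem synthesis enzymes followed here in each library (y axis, summed TPM; x axis, replicate number within inhibition plus spermidine, inhibition and control). The Cpox segment averages 33.5 TPM with inhibition plus spermidine, 35.0 TPM with inhibition and 209 TPM in control, and the Alas1 segment at the base is widest with inhibition.

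Blvrb had 31.7, 29.0 and 34.3 CPM with inhibition, against 224, 222 and 216 CPM in control (log2 fold change -2.81, SE 0.049, adjusted p = 8.35e-18, edgeR). The fall was the 231st largest of all tested genes. Of the 9 other genes of haem breakdown, binding and export tested beside Blvrb, 5 rose, 1 fell and 3 were not called. Among all tested genes 36.2% were called higher and 36.1% lower. The median of the 9 was 0.19 on the log2 scale, against 0.021 for all genes. Hmox2, the constitutive haem oxygenase, rose, at 154 ± 2.91 CPM with inhibition and 60.2 ± 1.12 CPM in control (SD, n = 3 each; log2 fold change 1.35, SE 0.040). Hmox1, the inducible haem oxygenase, was also called higher but stayed under 1 CPM in every library, averaging 0.899 CPM with inhibition and 0.0964 CPM in control. Flvcr1, a haem exporter, rose with a log2 fold change of 0.76 (SE 0.092).

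Car1 had 30.1, 29.5 and 29.6 CPM with inhibition, against 1580, 1595 and 1616 CPM in control. The replicates of each group lay within a narrow band, and Car1 had the 12th largest fall of 14461 tested genes (log2 fold change -5.75, SE 0.033, adjusted p = 5.52e-24, edgeR). Car2, which lies near it on chromosome 3 and is the other main cytosolic carbonic anhydrase of red cells, fell less. It stood at 707, 695 and 685 CPM with inhibition, against 1627, 1664 and 1638 CPM in control (log2 fold change -1.24, SE 0.027). The ratio of Car1 to Car2 TPM was therefore 0.0458 ± 0.00264 with inhibition and 1.02 ± 0.0149 in control (SD, n = 3 each). Of the 10 carbonic anhydrase genes tested beside Car1, 2 rose, 5 fell and 3 were not called (median log2 fold change -0.59). Among all tested genes 36.2% were called higher and 36.1% lower. The other falls included Car7 (log2 fold change -1.47, SE 0.088), Car5b, a mitochondrial form (log2 fold change -1.38, SE 0.15), and Car13 (log2 fold change -0.84, SE 0.14), each under 15 CPM in every library.

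The genes around this pathway were read from lists of known members, to be set beside 36.2% of all tested genes called higher and 36.1% lower. Of 17 carriers and cofactor genes of haem synthesis 4 rose, 11 fell and 2 did not pass (median -0.45). Abcb10, an inner mitochondrial membrane transporter needed for haem synthesis in erythroid cells, went against the majority, with 113, 115 and 121 CPM with inhibition, against 7.04, 7.35 and 6.96 CPM in control (log2 fold change 4.03, SE 0.070). Tmem14c, which moves protoporphyrinogen inward (log2 fold change -0.65, SE 0.036), fell. Of 12 iron genes 5 rose, 5 fell and 2 did not pass (median 0.093), with Tfr2, transferrin receptor 2, down (log2 fold change -1.99, SE 0.069), and Slc40a1, the iron exporter ferroportin (log2 fold change 1.92, SE 0.075), and Ncoa4, which delivers ferritin for breakdown (log2 fold change 1.22, SE 0.049), up.

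Erythroid genes did not move as a single group. All 12 erythroid regulator genes fell (median -1.72), including Klf1, the erythroid Krüppel-like factor, at 4.50 ± 1.00 CPM with inhibition and 69.4 ± 2.64 CPM in control (SD, n = 3 each), Gata1 (log2 fold change -2.92, SE 0.096) and Gfi1b (log2 fold change -2.56, SE 0.052). Of 20 red cell membrane and late erythroid genes 3 rose, 16 fell and 1 did not pass (median -1.65), with Aqp1, a water channel (log2 fold change -4.47, SE 0.12), Icam4 (log2 fold change -2.66, SE 0.065) and Rhd (log2 fold change -2.92, SE 0.077) lower. Globin genes went the other way, as Alas2 did: all 4 tested rose, their sum being 661 to 712 CPM with inhibition and 96.6 to 98.8 CPM in control, and near-identical copies such as Hba-a1 and Hba-a2 can share reads. All 13 megakaryocyte genes also fell (sum 173 to 184 CPM with inhibition and 3058 to 3085 CPM in control), and none was at 0. Pf4, a platelet chemokine, made up most of this sum, averaging 104 CPM with inhibition and 2673 CPM in control. Neutrophil granule genes rose, all 16 of them (median 5.71), as did 8 of 9 B and plasma cell genes (sum 685 to 717 CPM with inhibition and 66.1 to 67.4 CPM in control) and all 8 T and NK cell genes (sum 1905 to 2018 CPM with inhibition and 1280 to 1363 CPM in control). The T and NK cell genes rose unequally, from 1.46-fold by means for Nkg7 to 15.7-fold for Klrb1c. With inhibition plus spermidine 7 of them were above control and only Nkg7 was below, yet their sum was lower (1010 to 1090 CPM). Nkg7 thus outweighed the others in this sum. The lists of this paragraph moved in the same libraries as the haem genes, and their part in those changes was not tested.

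**Figure D4:**
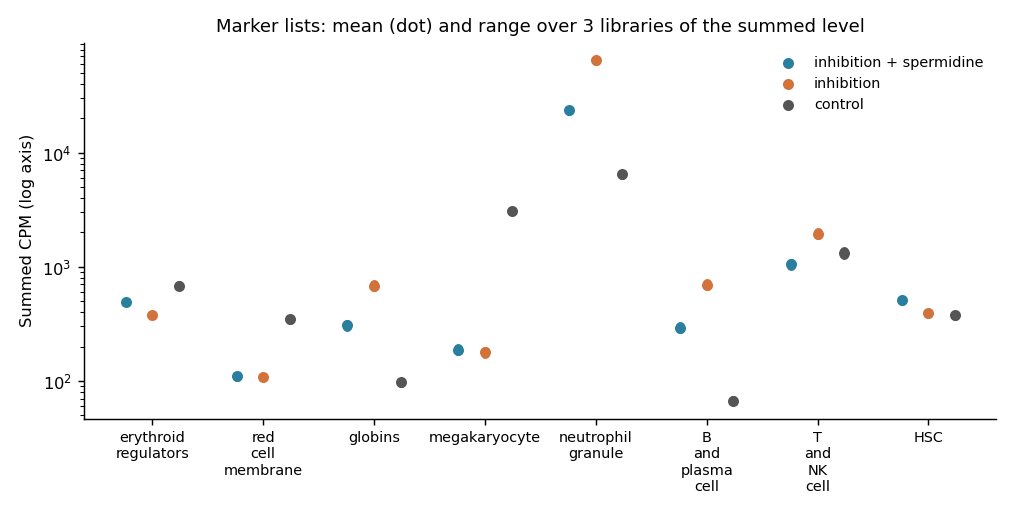
Summed CPM (log y axis) of 8 marker lists, with the mean as a dot and the range over 3 libraries as a bar, for inhibition plus spermidine, inhibition and control. Globins and neutrophil granule genes are highest with inhibition, and erythroid regulators, red cell membrane genes and megakaryocyte genes are highest in control. In the T and NK cell sum Nkg7 outweighs the other genes, as Pf4 does in the megakaryocyte sum.

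Inhibition plus spermidine against inhibition asks what the supplement changed in inhibited mice. Alas1 moved most among the 9 genes: it had 38.9, 38.2 and 37.9 CPM with spermidine, against 75.9, 77.1 and 81.4 CPM with inhibition alone (log2 fold change -1.03, SE 0.044, adjusted p = 8.29e-12, edgeR). No library overlapped, and the fall held in all 19 alternative settings, between -1.08 and -0.77. Of the genes that had fallen furthest against control, Car1 and Blvrb were little changed. Car1 had 26.2, 26.2 and 25.7 CPM with spermidine and 30.1, 29.5 and 29.6 CPM with inhibition. Blvrb had 34.9, 35.8 and 37.2 CPM with spermidine and 31.7, 29.0 and 34.3 CPM with inhibition. Cpox moved more, with 109, 110 and 101 CPM with spermidine and 136, 142 and 134 CPM with inhibition.

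Of the 9 genes 2 were called higher and 5 lower, against 29.1% higher and 28.9% lower among all tested genes. Scaling by total counts moved the median of all genes to 0.29, from 0.027 with the trimmed-mean (TMM) scaling used here. It gave 5 of the 9 genes higher and 1 lower, where 7711 of all 14461 tested genes were higher and 1793 lower. The direction of the small changes therefore depends on the scaling. Blvrb rose (log2 fold change 0.19, SE 0.054), a call lost without inhibition replicate 2 (log2 fold change 0.11). Ppox, with 5.48, 6.46 and 4.87 CPM with spermidine and 3.87, 4.07 and 5.30 CPM with inhibition, was called higher (log2 fold change 0.36, SE 0.13) although its libraries overlapped, and the call was lost without inhibition replicate 1 (0.26), inhibition replicate 2 (0.28) or spermidine replicate 2 (0.23). Cpox fell (log2 fold change -0.36, SE 0.041), a change of -0.099 that did not pass with total-count scaling. Alad (log2 fold change -0.14, SE 0.044) and Car1 (log2 fold change -0.19, SE 0.037) were called lower and turned positive with total-count scaling (0.12 and 0.072). Alas2, at 1.41, 1.64 and 1.66 CPM with spermidine and 2.70, 2.24 and 2.6 CPM with inhibition, was called lower (log2 fold change -0.67, SE 0.21), a call lost without spermidine replicate 1 (-0.60) and with total-count scaling (-0.41). Its mean TPM was 2.27 with spermidine and 2.50 with inhibition, and the limma fold change on log2(TPM + 1) was -0.095. Urod (log2 fold change 0.064, SE 0.040, adjusted p = 0.183, edgeR) and Fech (log2 fold change 0.066, SE 0.069, adjusted p = 0.431, edgeR) did not pass, and passed as higher with total-count scaling (0.33 each). Libraries did not overlap for 7 of the 9 genes, Ppox and Fech being the exceptions, and for 62.8% of all tested genes.

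Among genes of the same pathways outside the 9, Car2 rose to 910, 939 and 945 CPM with spermidine, against 707, 695 and 685 CPM with inhibition (log2 fold change 0.42, SE 0.026), and did so in all 19 alternative settings. Uros, at 19.1, 21.5 and 17.6 CPM with spermidine and 17.0, 16.7 and 16.8 CPM with inhibition, was called higher (log2 fold change 0.21, SE 0.078), a call lost without spermidine replicate 2 (0.13) or any 1 inhibition library (0.19 to 0.21). The ratio of Car1 to Car2 TPM was 0.0322 ± 0.00154 with spermidine and 0.0458 ± 0.00264 with inhibition (SD, n = 3 each). Slc40a1 (log2 fold change -1.56, SE 0.069) and Klf1 (log2 fold change -1.41, SE 0.16) fell too. All 4 globin genes fell, with a sum of 298 to 317 CPM with spermidine and 661 to 712 CPM with inhibition, and so did all 16 neutrophil granule genes (sum 23002 to 23654 CPM with spermidine and 63281 to 65166 CPM with inhibition); these directions were the same with total-count scaling. Alas1 was lower in the same libraries as the neutrophil genes, and their part in its change was not tested. Of the 12 erythroid regulators 6 rose, 1 fell and 5 did not pass, with 7 higher and 1 lower under total-count scaling. Of all 14461 tested genes 4213 were higher and 4183 lower, and 7711 and 1793 with total-count scaling, to be set beside the list counts of this paragraph. For most other lists the counts of higher to lower calls depended on the scaling. They were 2 to 8 of 17 carriers and cofactor genes (10 to 1 with total counts), 2 to 6 of 12 iron genes (6 to 3) and 2 to 3 of 9 breakdown and export genes without Blvrb (3 to 1). Carbonic anhydrases without Car1 were 4 to 0 of 10 (8 to 0) and membrane genes 4 to 4 of 20 (10 to 3). Megakaryocyte genes were 5 to 3 of 13 (8 to 2), B and plasma cell genes 0 to 8 of 9 (1 to 6) and HSC markers 9 to 1 of 14 (10 to 0). T and NK cell genes were 2 to 3 of 8 with either scaling.

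Inhibition plus spermidine against control gives the state of these genes with the supplement relative to control mice, and it shares its libraries with the other comparisons. Car1, Cpox and Blvrb were far below control here as well, at 26 ± 0.251, 107 ± 4.85 and 36.0 ± 1.20 CPM with spermidine and 1597 ± 18.5, 909 ± 39.3 and 221 ± 4.12 CPM in control (SD, n = 3 each). By means they were 61.4-fold, 8.52-fold and 6.13-fold lower, and Car1 had the 7th largest fall of all tested genes (log2 fold change -5.94, SE 0.033, adjusted p = 1.08e-23, edgeR). Alas1 was above control, with 38.9, 38.2 and 37.9 CPM with spermidine, against 29.8, 31.6 and 33.2 CPM in control (log2 fold change 0.28, SE 0.049, adjusted p = 5.97e-05, edgeR). Its size depended on the scale: in TPM Alas1 averaged 28.9 ± 2.96 with spermidine and 16.8 ± 1.67 in control (SD, n = 3 each), and over the 19 alternatives the log2 fold change ran from 0.22 to 0.78, with 0.54 under total-count scaling and 0.75 with limma on log2(TPM + 1).

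In this comparison 2 of the 9 genes were called higher and 7 lower, against 41.0% higher and 37.1% lower among all tested genes, and no library overlapped for any of the 9, as for 79.8% of all tested genes. Alas2 was the other gene called higher (log2 fold change 1.94, SE 0.31). Its implied transcript length was lower by 0.95 on the log2 scale than in control, a value that rests on the same few control counts. Ppox (log2 fold change -1.22, SE 0.11), Urod (log2 fold change -0.67, SE 0.038), Alad (log2 fold change -0.66, SE 0.043) and Fech (log2 fold change -0.36, SE 0.067) fell, the last of these a call lost with total-count scaling (-0.093). Uros fell too (log2 fold change -0.29, SE 0.075), a call lost with total-count scaling (-0.025). Summed over the 7 haem synthesis enzymes, TPM was 163 ± 6.65 with spermidine and 356 ± 8.55 in control (SD, n = 3 each).

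Car1, Alas1 and Alas2 were each set beside the other genes of at least 5 mean CPM, 8475 of the tested genes being compared, by the root mean square distance of centred log2(CPM + 1) over the 9 libraries. The genes nearest Car1 were Pf4, a platelet chemokine (distance 0.51), Ptk2, a focal adhesion kinase (0.54), Pdzph1 (0.63), Iho1 (0.66) and Fam161b (0.72). Pf4 averaged 97.3 CPM with inhibition plus spermidine, 104 CPM with inhibition and 2673 CPM in control. Nearest Alas1 were Ptgr1 (0.036), Gm21188 (0.046), Prss34, a protease of basophils and mast cells (0.064), Ero1a (0.070) and Xpc (0.072). Ptgr1 averaged 76.8 CPM with inhibition plus spermidine, 157 CPM with inhibition and 65.8 CPM in control. Nearest Alas2 were Impa1 (0.099), Lgmn, a lysosomal protease (0.10), Schip1 (0.11) and Entpd7 (0.12). Alas2 itself is so low that its distances also carry counting noise, and the added 1 CPM narrows its changes more than those of these genes. By means Alas2 was 6.39-fold higher with inhibition than in control, while Impa1 averaged 73.5 CPM with inhibition and 29.9 CPM in control. The genes named are therefore near Alas2 on this scale only. The 9 libraries form 3 groups, so few independent levels are compared.

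The genes followed here are protein-coding and placed by their gene bounds in GENCODE M21 (mm10). Alas1 (ENSMUSG00000032786) lies on chromosome 9 at 106233455 to 106248654, minus strand, and Alas2 (ENSMUSG00000025270) on chromosome X at 150547375 to 150570638, plus strand. Alad (ENSMUSG00000028393) lies on chromosome 4 at 62509169 to 62519918 and Urod (ENSMUSG00000028684) on chromosome 4 at 116989965 to 116994413, both on the minus strand. Cpox (ENSMUSG00000022742) lies on chromosome 16 at 58670292 to 58717636, plus strand, Ppox (ENSMUSG00000062729) on chromosome 1 at 171275990 to 171281186, minus strand, and Fech (ENSMUSG00000024588) on chromosome 18, minus strand. Blvrb (ENSMUSG00000040466) lies on chromosome 7 at 27447978 to 27466144, plus strand, and Car1 (ENSMUSG00000027556) on chromosome 3 at 14766216 to 14808368, minus strand. Beside the overlaps given above, Cpox shares 3.06% of its exonic bases with Gpr15, which stayed at or under 1.18 CPM in every group mean, and Alas1 shares 7.53% with the antisense gene 4930500F10Rik.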

How the data were processed

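Polyadenylated RNA of 1500 sorted HSCs per library was reverse transcribed, enriched with 12 PCR cycles and sequenced as paired reads, per the labels' protocols. Per the submitters' processing notes, build mm10 and, in no stated order, edgeR 3.24.3, HTSeq 0.10.0, STAR 2.6.1d and Trim Galore 0.6.2 were used. The authors deposited estimated counts per gene, not scaled between libraries (48.2% of values are whole to within 1e-06), and TPM values, whose step of origin is not given in the sources used here.

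Estimated counts were rounded and tested over all genes in R 4.3.3 with edgeR 4.0.16 (quasi-likelihood test, 9 libraries in 1 fit, a mean per group, TMM scaling, default low-count filter, Benjamini-Hochberg threshold 0.05), after the fit was tested on simulated data. Totals were 16096276 to 25360256, so 0 counts (3-count floor) allows 0.117 to 0.184 CPM, counting error only. The 19 alternatives used other scalings, DESeq2 1.42.0, limma 3.58.1 on log2(TPM + 1), no filter, a replicate block, only the groups compared, marker genes of other cell types removed and each library left out. Replicates were checked for duplicates and differed by more than sampling noise (mean chi-squared per gene 2.45 to 7.82). Of listed identifiers 19437 matched GENCODE M21 and 17 did not. Lists were described by counts and medians. Named genes were the members, Uros, Car2, up to 3 genes per list with the smallest p against control and 5 nearest genes for Car1, Alas1 and Alas2, leaving out a few genes that are not reported here. Members and lists were chosen with earlier results of these data known.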

Additional observations from a re-analysis of the deposited data

How the results depend on the processing

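Over 33 fold changes (the 9 genes plus Uros and Car2 in 3 comparisons) and 19 alternative settings, 588 of 627 values kept their direction and their side of the threshold, 23 lost the call, 5 gained it and 11 changed sign. For inhibition against control, all 9 genes kept both under all 19 settings. The exceptions lie in the comparisons with spermidine, where the TMM factors of the spermidine libraries (1.12 to 1.14) differ from the rest (0.931 to 0.95). For inhibition plus spermidine against inhibition, members called higher were 5 and lower 1 with total-count scaling and with limma on TPM under either pseudocount or without a filter, and 1 higher with DESeq2 and without the low-count filter. Leaving out each library in turn gave 0 to 2 higher and 4 to 5 lower, the 0 without inhibition replicate 2. In that comparison Alad turned positive with total-count scaling (0.118), limma on log2(TPM + 1) (0.167, with or without a filter) and log2(TPM + 0.1) (0.171), and Car1 likewise (0.072, 0.236 and 0.247). Uros in inhibition plus spermidine against control turned positive with limma (0.0798, and 0.0858 with the pseudocount of 0.1). The cause of these sign changes was not tested. Over all genes in inhibition plus spermidine against inhibition, 4213 were higher and 4183 lower, against 7711 and 1793 with total-count scaling. Limma gave 1090 and 1068 lower under the pseudocounts of 1 and 0.1, and 7997 higher and 1333 lower without a filter. With limma, lower calls against control were 3427 and 3424 for inhibition (5227 with edgeR). For inhibition plus spermidine they were 2255, 2230 and, without a filter, 2918 (5363 with edgeR), where 9239 were higher without a filter (5930 with edgeR). Limma tested 9809 genes under the pseudocounts of 1 and 0.1 and 19454 without a filter, against 14461 with edgeR. Counts from limma and edgeR are therefore out of different numbers of genes.

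Same-numbered libraries correlated at -0.0753 to 0.0891 in their deviations from the group means. With 3 libraries per group, such values cannot exclude that equal numbers share a batch or an animal, which the labels do not state. With the replicate block, 9, 7 and 9 members were called in inhibition against control, inhibition plus spermidine against inhibition and inhibition plus spermidine against control, the counts obtained without it, and Alas1 in the second was -1.02. Depth limits Alas2, which had 4 to 13 counts per control library.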
